A study of Mus musculus with 4 samples.

Results

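The enzymes that hydroxylate collagen and crosslink it were described in mouse liver cell lines: the lysyl oxidases Lox, Loxl1, Loxl2, Loxl3 and Loxl4, the lysyl hydroxylases Plod1, Plod2 and Plod3, and the catalytic subunits P4ha1 and P4ha2 of prolyl 4-hydroxylase. The members were all probe sets whose platform annotation gives one of these 10 symbols alone. They were 16 of the 45101 probe sets on the array and stood for 9 of the 10 genes. Loxl2 had no such probe set, since both of its probe sets are annotated to Gm21451 as well, and no value is given for it. Of the 16 probe sets, 13 passed a filter on low signal, set at a signal of about 11.7, and each of the 9 genes kept at least 1 of them.

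Procollagen chains are modified in the endoplasmic reticulum before they fold. Prolyl 4-hydroxylase makes the hydroxyproline that stabilises the triple helix, and lysyl hydroxylases make the hydroxylysine that carries sugars and enters stable crosslinks. Both kinds of enzyme need iron and ascorbate. Lysyl oxidases, which carry copper, then oxidise lysine and hydroxylysine side chains of collagen and elastin outside the cell, and the resulting aldehydes form the crosslinks of the fibre. In liver these enzymes are known mainly from fibrosis, in which stellate cells and portal fibroblasts lay down crosslinked collagen.

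Total RNA was measured on 4 Affymetrix Mouse430_2 arrays. Resident liver stem cells (RLSC) were represented by a pair of lines with 1 array each. MetE14/3 was derived from the liver of an embryo 14 days post coitum carrying the cyto-Met transgene and originated from clone B2, so it stands for 1 clone. WTE14/1 was derived at that same age from the liver of a wild-type embryo; it is called by its title here, although its source field reads WT E14/3. The hepatocytic, differentiated line MMH-D3 had 2 arrays, called array 1 and array 2. The labels describe MMH lines as established from primary liver cultures and do not give a genotype or age for MMH-D3 itself. All cultures were on collagen-I coated dishes. The RLSC colonies were expanded in DMEM with serum, while the medium listed for MMH-D3 is that of the primary cultures, RPMI-1640 with serum, epidermal growth factor, insulin-like growth factor II and insulin. Medium and cell line cannot be told apart. Separate cultures are not stated for the MMH-D3 arrays. All p-values rest on the spread between these arrays. Between the MMH-D3 arrays that spread may be technical, while the RLSC arrays hold different lines.

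The labels name no batch. The arrays were split into 2 groups, called batches here, by the signals of their poly-A spike control probe sets. These were 10.6-fold higher by median on MetE14/3 and MMH-D3 array 1 (batch A) than on WTE14/1 and MMH-D3 array 2 (batch B). The labelled cell types were checked on marker genes. The 7 hepatocyte markers with a probe set summed to RLSC signals of 304.7 (MetE14/3) and 77.9 (WTE14/1), and to MMH-D3 signals of 4052 and 8878. The MMH-D3 sums came mostly from Apob (2879 and 4647) and Hnf4a (1049 and 1687), and on array 2 also from Apoa1 (1951, against 44.6 on array 1). All 5 tested were lower on both RLSC arrays, against 21.4% of all genes. Alb, Ttr and Apoa1 lay below the filter level on both RLSC arrays and passed the filter only through MMH-D3. Their places in this count are therefore no support for a difference. The apolipoprotein gene Apob passed (-6.71, SE 0.85, limma adjusted p = 0.0371). The late hepatocyte enzymes Cps1 and Tat lay below the filter and read highest on WTE14/1. Cps1 read 9.1 and 20.8 in RLSC against 10.9 and 7.27 in MMH-D3, and Tat 2.4 and 24.5 against 4.1 and 1.14. The 5 epithelial markers were lower on both RLSC arrays too, with none passing, and summed to 17460 and 11340 in RLSC against 30010 and 37340 in MMH-D3. Mesothelial markers were likewise lower on both RLSC arrays, all 4 of 4, and summed to 2999 and 2150 in RLSC against 12640 and 17810 in MMH-D3. The uroplakin gene Upk1b (25.1 and 13.2 in RLSC against 6289 and 6229 in MMH-D3, limma adjusted p = 0.015) and the transcription factor gene Wt1 (9.2 and 14.8 in RLSC against 192 and 398 in MMH-D3, limma adjusted p = 0.0361) passed. Of 11 mesenchymal and fibroblast markers 7 were tested, and the smooth muscle genes Acta2 and Tagln passed as higher. Acta2 read 1638 and 8962 in RLSC, against 47.5 and 38.7 on the MMH-D3 arrays (limma adjusted p = 0.0372), and Tagln 399 and 1989 in RLSC against 8.8 and 1.23 in MMH-D3 (limma adjusted p = 0.0402). Pdgfrb read 248 and 65.8 in RLSC against 0.2 and 1.19 in MMH-D3 without passing (limma adjusted p = 0.067). Tagln and Pdgfrb lay below the filter level on both MMH-D3 arrays and passed the filter only through RLSC. Their tests are therefore no support for a difference. Vim lay between 13466 and 17248 on all 4 arrays, while Col1a1, Dcn, Lum and Thy1 lay below the filter. Pdgfra went the other way, at 12.1 and 6.80 in RLSC against 13.2 and 21.05 in MMH-D3, and did not pass. Col1a2 (0.67, SE 0.52) was higher on both RLSC arrays and Col3a1 (1.42, SE 1.04) overlapped, and neither passed. Of the 5 stellate markers only Des was tested (-0.83, SE 0.66), and it did not pass. The others lay below the filter and did not go 1 way. Hand2 read 11.6 and 51.3 in RLSC against 0.6 and 7.97 in MMH-D3, and Reln 1.8 and 2.14 against 19.2 and 6.52. Lrat read 7.8 and 12.9 in RLSC against 3.5 and 11.5 in MMH-D3, and Lhx2 1.9 and 1.70 against 0.6 and 1.65. Each of the 5 marker calls was lost without MMH-D3 array 1 (limma adjusted p 0.0699 to 0.0912) and without array 2 (0.205 to 0.285), and all but that of Upk1b without WTE14/1 (0.0621 to 0.0854); that of Wt1 was also lost without MetE14/3 (0.0501). The part of these markers in the member differences was not tested. The blood cell markers Ptprc and Lyz2 and the endothelial markers Pecam1, Cdh5 and Tek lay below the filter too. The macrophage markers Cd68, Adgre1 and Csf1r and the endothelial marker Kdr were above it and tested, and none passed. Csf1r read 44.0 and 79.0 in RLSC against 37.3 and 67.0 in MMH-D3. Kdr read 17.6 and 36.5 in RLSC against 4.1 and 34.7 in MMH-D3. In such bulk RNA, fewer cells of a type and less RNA per cell cannot be told apart.

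The design compared the RLSC lines with MMH-D3. Values entered as log2(signal + 4) after quantile normalization, differences are RLSC minus MMH-D3 on that scale with a moderated standard error (SE), and signals are the deposited ones. Lysyl oxidase and lysyl hydroxylase signals were mostly higher in RLSC, but no member passed limma's test at an adjusted p of 0.05. The largest differences were in Loxl1 (5.43, SE 1.07), Lox (3.51, SE 1.45) and Plod2 (2.47, SE 0.43). P4ha1 alone had a negative difference (-0.85, SE 0.54).

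Of the 12598 genes tested, 0.397% passed limma as higher in RLSC and 0.516% as lower, against 0 of the 9 members in either direction. At an unadjusted p under 0.05, 4 of the 9 members, namely Lox, Loxl1, Loxl4 and Plod2, were higher and none lower, against 5.27% and 7.10% of all genes. Both RLSC arrays lay above both MMH-D3 arrays for 6 of the 9 members and below both for none, against 20.8% and 21.4% of all genes. Lox and Loxl1 lay below the filter level on both MMH-D3 arrays and passed the filter only through their RLSC signals. Their places in these counts are therefore no support for a difference. The median difference over the members was 1.05, against 0.03 over all genes tested. Batch A alone gave a median of 0.91 and batch B one of 1.82.

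**Figure D1:**
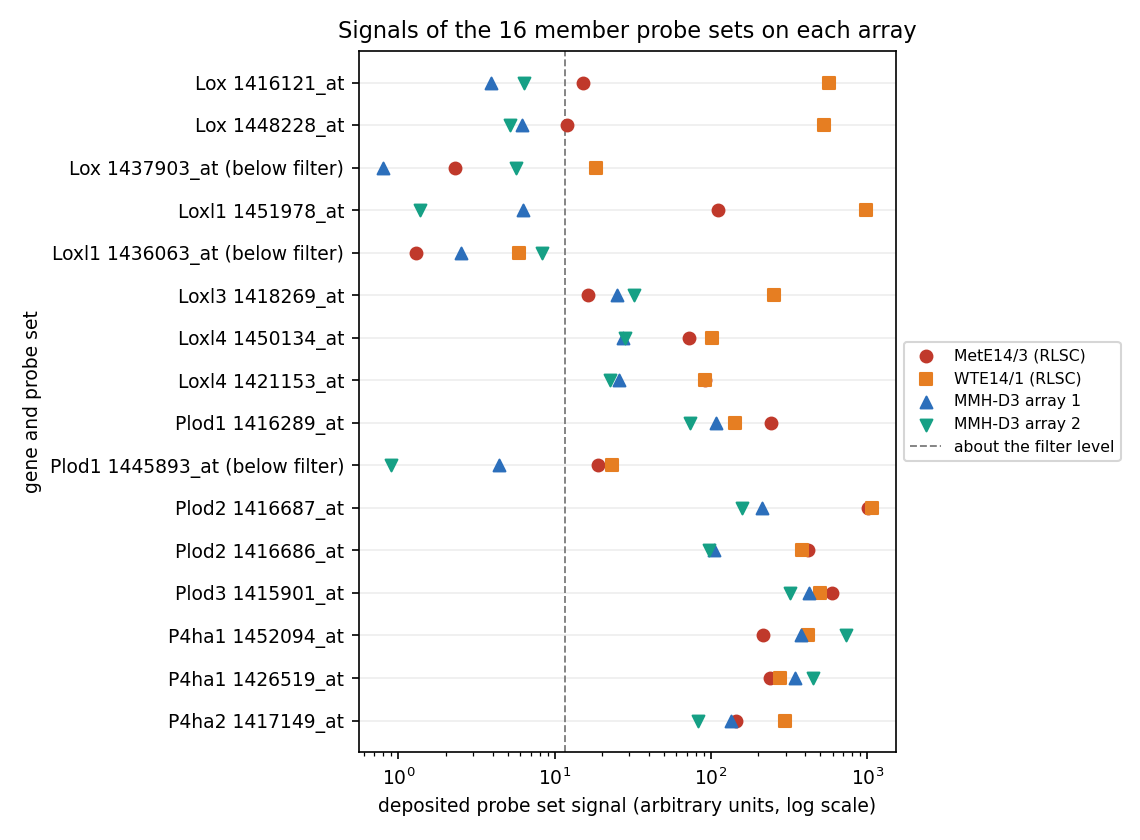
Deposited signals of the 16 member probe sets on a log axis, with 1 point for each array and the approximate filter level of 11.7 as a dashed line. WTE14/1 stands apart to the right on the Lox, Loxl1 and Loxl3 probe sets that passed the filter, but not on Loxl1 1436063_at. For Plod2 and Loxl4 the RLSC points lie together above the MMH-D3 points.

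Among the lysyl oxidases, Lox itself, the founding member of the family, had RLSC signals of 15.2 (MetE14/3) and 567 (WTE14/1), against 3.9 and 6.36 on the MMH-D3 arrays. WTE14/1 was far above the other arrays, and both MMH-D3 signals lay below the filter level, so the size of the difference depends on the pseudocount. The difference of 3.51 had a 95% interval from 0.01 to 7.02 (limma adjusted p = 0.404). A second probe set, 1448228_at, had RLSC signals of 11.9 and 528 in the same order, and MMH-D3 signals of 6.2 and 5.19. The remaining one, 1437903_at, lay below the filter; its RLSC signals of 2.3 and 18.5 overlapped those of 0.8 and 5.64 in MMH-D3.

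Loxl1, which is needed for elastic fibre renewal, read 111 in the MetE14/3 line and 986 in the WTE14/1 line, while the MMH-D3 arrays read 6.3 and 1.37. Both RLSC lines were clearly above the MMH-D3 arrays, whose signals lay below the filter level. The difference of 5.43 had a 95% interval from 2.83 to 8.02 and did not pass (limma adjusted p = 0.0962), ranking 269 of 12598 genes by p. The other Loxl1 probe set, 1436063_at, was below the filter, at 1.3 and 5.87 in RLSC against 2.5 and 8.27 in MMH-D3, and did not separate the groups.

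With WTE14/1 alone set against MMH-D3, Lox (5.90, SE 0.69, limma adjusted p = 0.0237) and Loxl1 (7.01, SE 0.79, limma adjusted p = 0.0233) passed, where 0.405% of all genes passed as higher. That fit assumes that the lone array varies as the MMH-D3 pair does. Both genes lay below the filter level on both MMH-D3 arrays and passed the filter only through RLSC, Lox mainly through WTE14/1 itself. Their passes in that fit are therefore no support for a difference, whatever the share of all genes passing. With MetE14/3 alone against MMH-D3 the differences were 1.13 for Lox and 3.84 for Loxl1, and neither passed (limma adjusted p = 0.941 and 0.164), where 0.0397% of all genes passed as higher. Over the 12 alternative fits the adjusted p of Lox ran from 0.0237 to 0.941, and over 13 that of Loxl1 from 0.0233 to 0.489.

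Loxl3, a lysyl oxidase required for palate and spine development in mice, had RLSC signals of 16.3 (MetE14/3) and 252 (WTE14/1), and MMH-D3 signals of 24.9 and 32.4. The RLSC lines lay on opposite sides of the MMH-D3 arrays. The overall difference was 1.05 with an SE of 1.10 (limma adjusted p = 0.805), with -0.72 in batch A alone and 2.81 in batch B alone.

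Loxl4, a family member with scavenger receptor domains, read 72.1 in the MetE14/3 line and 102 in the WTE14/1 line, while the MMH-D3 arrays read 27.3 and 28.1. Its 2 probe sets gave like values, since 1421153_at read 91.9 and 91.2 in RLSC and 25.7 and 22.4 in MMH-D3. RLSC was above MMH-D3 on both without overlap. The difference of 1.28 (SE 0.50) had a 95% interval from 0.06 to 2.50 and did not pass (limma adjusted p = 0.371).

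Plod2 encodes the lysyl hydroxylase that acts on the collagen telopeptides and so sets the type of crosslink. Its RLSC signals were 1004 (MetE14/3) and 1064 (WTE14/1), and its MMH-D3 signals 211 and 157. The RLSC lines lay close together and well above both MMH-D3 arrays, and all 4 signals were above the filter level. RLSC had a mean signal of 1034 ± 41.9 and MMH-D3 one of 184 ± 38.4 (SD, n = 2 arrays each). The difference of 2.47 had a 95% interval from 1.44 to 3.51, ranking 188 of 12598 by p, and did not pass (limma adjusted p = 0.069). Without quantile normalization it passed (2.48, SE 0.41, limma adjusted p = 0.0478), where 0.571% of all genes passed as higher; over 13 alternative fits the adjusted p ran from 0.0478 to 0.284. The other Plod2 probe set, 1416686_at, read 415 and 384 in RLSC against 105 and 96.3 in MMH-D3.

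Plod1, the lysyl hydroxylase of helical lysines, had RLSC signals of 244 (MetE14/3) and 143 (WTE14/1), and MMH-D3 signals of 108 and 73.0. The groups did not overlap, but the arrays within each group differed by 0.88 between the RLSC lines and 0.84 between the MMH-D3 arrays, as much as the difference of 0.89 (SE 0.56, 95% interval -0.47 to 2.25, limma adjusted p = 0.63). It was 0.44 without MetE14/3, 1.33 without WTE14/1, 1.31 without MMH-D3 array 1 and 0.47 without array 2. Its low probe set 1445893_at, below the filter, read 18.9 and 23.3 in RLSC against 4.4 and 0.89 in MMH-D3. Plod3, which also adds sugars to hydroxylysine, read 596 in the MetE14/3 line and 499 in the WTE14/1 line, while the MMH-D3 arrays read 423 and 321. Its arrays separated narrowly and the difference was 0.54 (SE 0.42, 95% interval -0.47 to 1.55, limma adjusted p = 0.713), and 0.30 without MMH-D3 array 2.

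P4ha1 and P4ha2 encode alternative catalytic subunits that pair with the same partner, the P4hb product. P4ha1 had RLSC signals of 214 (MetE14/3) and 418 (WTE14/1), and MMH-D3 signals of 376 and 730. WTE14/1 lay between the MMH-D3 arrays, so the groups overlapped. The difference of -0.85 had a 95% interval from -2.16 to 0.45 (limma adjusted p = 0.626), with -0.88 in batch A alone and -0.83 in batch B alone. It was -0.39 without MetE14/3, -1.32 without WTE14/1, -1.30 without MMH-D3 array 1 and -0.41 without array 2. On the second probe set, 1426519_at, both RLSC signals (240 and 275) lay below both MMH-D3 signals (345 and 452), a difference of -0.69 (SE 0.42). P4ha2 read 144 in the MetE14/3 line and 298 in the WTE14/1 line, while the MMH-D3 arrays read 135 and 81.9. Its difference was 0.87 (SE 0.58, limma adjusted p = 0.651), -0.09 in batch A alone and 1.82 in batch B alone. It ran from 0.39 without WTE14/1 or MMH-D3 array 2 to 1.34 without either of the other arrays.

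P4ha1 and P4ha2 are known targets of hypoxia-inducible factor, whose binding motif has the cores ACGTG and GCGTG. RefSeq promoter windows, on build GRCm38.p6, were held for 5 of the 10 genes. The 250 bases before the gene start of P4ha1 (chr10:59323046-59323295, plus strand) and P4ha2 (chr11:54100674-54100923, plus strand) are shown because these paralogues had differences of opposite sign. Capitals mark the cores on either strand, so CACGT and CACGC are the same cores on the other strand.
P4ha1: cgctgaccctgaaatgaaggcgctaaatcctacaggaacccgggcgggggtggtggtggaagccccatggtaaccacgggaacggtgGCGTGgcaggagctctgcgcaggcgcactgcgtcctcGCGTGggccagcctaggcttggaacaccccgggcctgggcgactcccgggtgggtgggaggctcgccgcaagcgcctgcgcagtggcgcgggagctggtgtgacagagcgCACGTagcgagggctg
P4ha2: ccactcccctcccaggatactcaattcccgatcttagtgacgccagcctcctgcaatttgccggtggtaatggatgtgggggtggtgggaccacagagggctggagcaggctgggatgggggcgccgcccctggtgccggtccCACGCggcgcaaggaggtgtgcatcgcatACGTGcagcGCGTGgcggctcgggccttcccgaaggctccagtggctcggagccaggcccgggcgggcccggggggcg
Both windows held 1 ACGTG and 2 GCGTG cores. The ACGTG core began 16 bases before the start in P4ha1, on the other strand, and 78 bases before it in P4ha2, on the gene's strand. The windows of Plod1 and Loxl4 held 1 GCGTG each, and that of Plod3 held 1 ACGTG and 3 GCGTG. The palindrome CACGTG, which contains ACGTG, was in none of the 5 windows. Of 32851 promoter windows of this length, 16.6% held ACGTG, 28.2% held GCGTG and 38.6% held either core, and GC content was 69.6% in the P4ha1 window and 70.0% in the P4ha2 window. These matches are descriptions of letters and not of binding.

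The MMH-D3 arrays differed from each other in hypoxia response genes and in hepatocyte markers, beside which the P4ha values stand. Of 18 hypoxia response genes tested, 14 were higher on array 2 than on array 1, and 7 of them at least 4-fold, against 2.94% of all genes. The median of array 1 minus array 2 was -7.35e-06 over all genes tested and -1.11 over the hypoxia response genes. The 19 with a probe set summed to 23590 in the MetE14/3 line, 24200 in the WTE14/1 line, 25930 on MMH-D3 array 1 and 48590 on array 2. The angiogenic factor Vegfa read 125 on array 1 and 1246 on array 2. Of the hepatocyte markers all 5 tested were higher on array 2, and 3 of them at least 4-fold, with a median of -2.25 for array 1 minus array 2. The plasma protein genes Alb, Ttr and Apoa1 read 44.7, 19.8 and 44.6 on array 1, and 440.5, 144 and 1951 on array 2. P4ha1 was likewise lower on array 1, by 0.89, but P4ha2 was higher there by 0.95. The part of these array differences in the P4ha values was not tested.

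**Figure D2:**
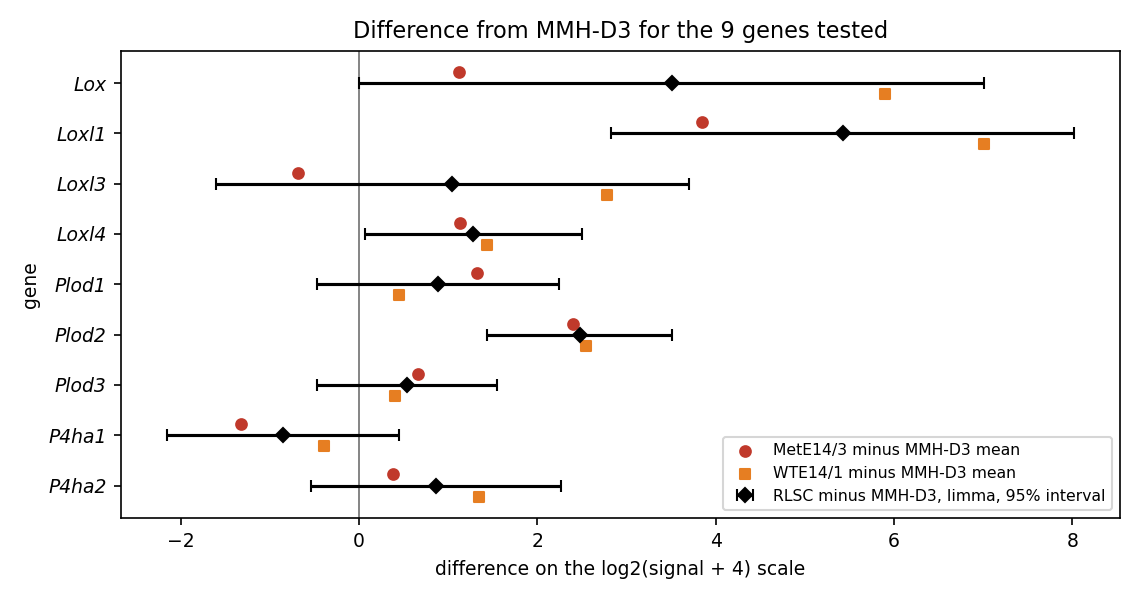
RLSC minus MMH-D3 for the 9 genes tested, on the log2(signal + 4) scale, with limma's 95% interval as bars (2 arrays a group) and each RLSC line's own difference from the MMH-D3 mean as coloured points. The coloured points are far apart for Lox, Loxl1 and Loxl3 and close together for Plod2, Loxl4 and Plod3.

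The RLSC lines were then set against each other. With 1 array a line there is no test; the count was of genes 4-fold apart or more, and the difference between the MMH-D3 arrays was measured in the same way. Lox, Loxl1 and Loxl3 were at least 4-fold lower in MetE14/3 than in WTE14/1, 3 of the 9 members, against 2.33% of all genes. Lox, at 15.2 in MetE14/3 and below the filter level in MMH-D3, passed the filter mainly through WTE14/1. No member was at least 4-fold higher in MetE14/3, against 2.80% of all genes. MetE14/3 minus WTE14/1 was -4.77 for Lox, -3.16 for Loxl1 and -3.46 for Loxl3. The MMH-D3 arrays, array 1 minus array 2, differed by -0.13, 1.17 and 0.07 for the same genes.

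The other 6 members lay within 4-fold between the lines. Plod2 differed by -0.14, Plod3 by 0.26 and Loxl4 by -0.30. Plod1 (0.88), P4ha1 (-0.93) and P4ha2 (-0.96) differed about as much between the MMH-D3 arrays, by 0.84, -0.89 and 0.95.

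**Figure D3:**
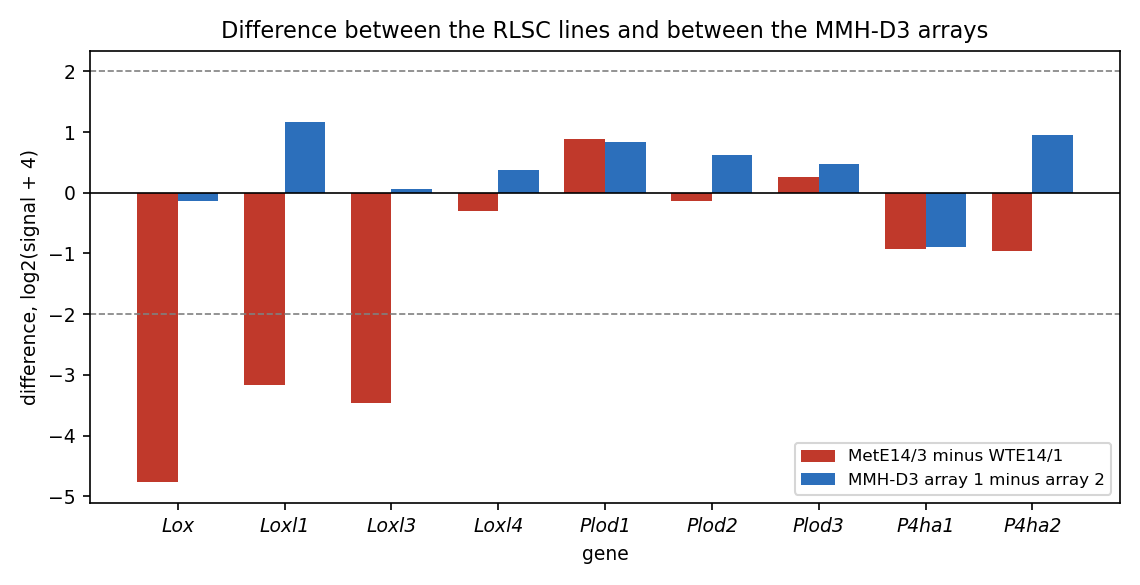
MetE14/3 minus WTE14/1 (left bar of each pair) and MMH-D3 array 1 minus array 2 (right bar) on the log2(signal + 4) scale, 1 array on each side of every difference, with dashed lines at 4-fold. The bars of Lox, Loxl1 and Loxl3 run from -4.77 to -3.16, past the dashed line, and all other bars stay inside it.

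Batch and line cannot be told apart here, since MetE14/3 was in batch A and WTE14/1 in batch B. Of the mesenchymal and fibroblast markers, 7 of 11 were tested; Acta2, Tagln and Col3a1 were at least 4-fold lower in MetE14/3, and Pdgfrb at least 4-fold higher there. The list summed to 15820 in MetE14/3 and 28490 in WTE14/1, mostly from Vim. The epithelial markers Cdh1 and Epcam and the hepatocyte markers Apob and Hnf4a were at least 4-fold higher in MetE14/3. The part of these markers in the lysyl oxidase difference was not tested.

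By pattern over the 4 arrays, the 2 genes nearest to Loxl1, the member with the largest positive difference, were Acta2 and Glipr2. Their Euclidean distances were 1.02 and 1.29 after each gene was centred on its mean, among 12598 genes. Glipr2 had RLSC signals of 585 (MetE14/3) and 1940 (WTE14/1), and MMH-D3 signals of 32.2 and 32.9. Nearest to P4ha1, the only member with a negative difference, were the zinc finger gene Klf13 (0.11) and the chemokine gene Cxcl1 (0.12). With 4 arrays such a likeness describes these arrays only.

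Other genes of the same pathway were taken from fixed lists. Collagen modification and folding genes had a median difference of 0.56 over 17 tested, against 0.03 over all genes, and none passed limma in either direction. At an unadjusted p under 0.05, 3 were higher and 1 lower, against 5.27% and 7.10% of all genes. The chaperones with the highest levels, Hspa5 (-0.27, SE 0.25) and Pdia3 (0.15, SE 0.27), differed little. Genes named next were chosen after their values were seen. P4hb, the partner of the P4ha subunits, had signals of 5101 and 4438 in RLSC against 6173 and 6768 in MMH-D3 (-0.37, SE 0.24, limma adjusted p = 0.628). P4ha3, another catalytic subunit, had signals of 31.4 and 69.2 in RLSC against 1.9 and 23.5 in MMH-D3 (1.89, SE 0.80, limma adjusted p = 0.422). Serpinh1, the collagen chaperone HSP47, had 1102 and 5483 in RLSC against 628 and 635 in MMH-D3; it was the single gene of this list at least 4-fold apart between the lines, at -2.32.

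Procollagen processing and fibril assembly genes had a median difference of 1.48 over 9 tested. Fibronectin (Fn1), on which collagen fibrils assemble, passed as higher, with signals of 5433 and 7927 in RLSC against 825 and 1269 in MMH-D3 (2.67, SE 0.35, limma adjusted p = 0.0372). None passed as lower. The Fn1 call held in 6 of 13 alternative fits (adjusted p 0.0266 to 0.238) and was lost without any 1 of the arrays, at an adjusted p of 0.0588 without MetE14/3, 0.155 without WTE14/1, 0.0844 without MMH-D3 array 1 and 0.238 without array 2. Bmp1, the protease that releases mature Lox and trims procollagen, had 194 and 208 in RLSC against 77.2 and 86.1 in MMH-D3 (1.12, SE 0.44, limma adjusted p = 0.383) and was named after its values were seen. So was Tgm2, a transglutaminase that crosslinks matrix proteins, the single gene of this list at least 4-fold apart between the lines; it read 1242 in MetE14/3 and 202 in WTE14/1, with 169 and 543 in MMH-D3.

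Collagen and elastin substrate genes had a median of 1.42 over 15 tested, and none passed in either direction. Both RLSC arrays lay above both MMH-D3 arrays for 11 and below both for 1, Ltbp4, against 20.8% and 21.4% of all genes. Without WTE14/1 the median was 0.86, and without each other array 1.38 to 1.76. The basement membrane collagens had the highest levels; Col4a1 read 3145 and 4166 in RLSC against 1409 and 1151 in MMH-D3 (1.56, SE 0.31, limma adjusted p = 0.0989), and Col4a2 differed by 1.38 (SE 0.35, limma adjusted p = 0.168). Col1a1 read 8.0 and 18.7 in RLSC against 9.9 and 5.16 in MMH-D3 and lay below the filter. Between the lines, 4 of the 15 were at least 4-fold lower in MetE14/3, against 2.33% of all genes. They were Col2a1, Col3a1, Col11a1 and Fbln5, named after their values were seen. All of them passed the filter mainly through WTE14/1, so this count is no support for a difference between the lines. Fbln5, the fibulin that brings Loxl1 to elastin, had RLSC signals of 19.3 (MetE14/3) and 332 (WTE14/1), and MMH-D3 signals of 5.9 and 5.27. Col11a1 read 0.5 in MetE14/3 and 239 in WTE14/1, a difference of -5.65 that depends on the pseudocount. Col2a1 (2.2) and Col3a1 (8.4) also lay below the filter level in MetE14/3, so the size of their differences depends on the pseudocount too.

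**Figure D4:**
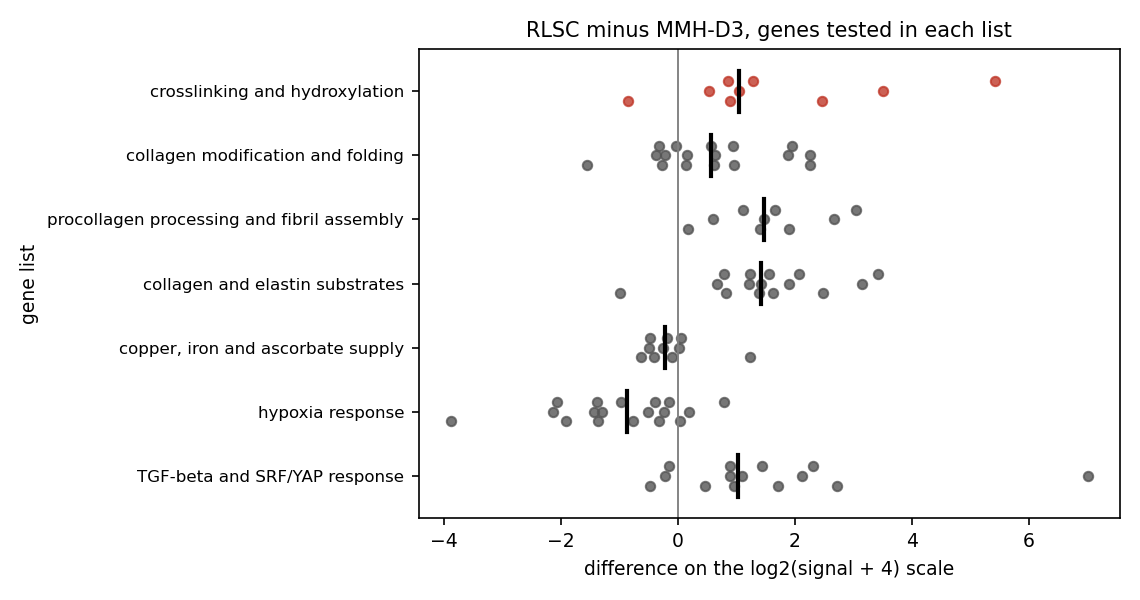
RLSC minus MMH-D3 on the log2(signal + 4) scale for each gene tested in the 7 lists, with medians as vertical bars. The crosslinking and hydroxylation genes have a median of 1.05, matrix substrates 1.42, and hypoxia response genes -0.86.

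The supply genes for copper, iron and ascorbate had a median of -0.21 over 10 tested and none passed. The median was -0.05 without MetE14/3 and -0.13 without MMH-D3 array 1. The transferrin receptor Tfrc differed by 0.02 (SE 0.52) and the copper chaperone Atox1 by 0.06 (SE 0.33). Hypoxia response genes had a median of -0.86 over 18 tested, with none passing. At an unadjusted p under 0.05, 4 were lower, against 7.10% of all genes. Between the lines Ndrg1 alone was at least 4-fold apart, at 2818 in MetE14/3 and 306 in WTE14/1, with 1696 and 7563 in MMH-D3; it was named after its values were seen. The glycolytic genes Pgk1 (-0.32, SE 0.27) and Ldha (-0.16, SE 0.22) had the highest levels. Batch A alone gave this list a median of -0.11 and batch B one of -1.14. It was -0.52 without WTE14/1, -1.37 without MMH-D3 array 1 and -0.16 without array 2. Genes of the TGF-beta, SRF and YAP response had a median of 1.04 over 14 tested, with 1 passing as higher, the matrix protein gene Thbs1 (7.01, SE 0.74, limma adjusted p = 0.0328), and none as lower. The Thbs1 call held in 9 of 13 alternative fits (adjusted p 0.0127 to 0.203); it was lost without WTE14/1 (adjusted p 0.0691), MMH-D3 array 1 (0.0699) or array 2 (0.203), and with no filter (0.0515).

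**Figure D5:**
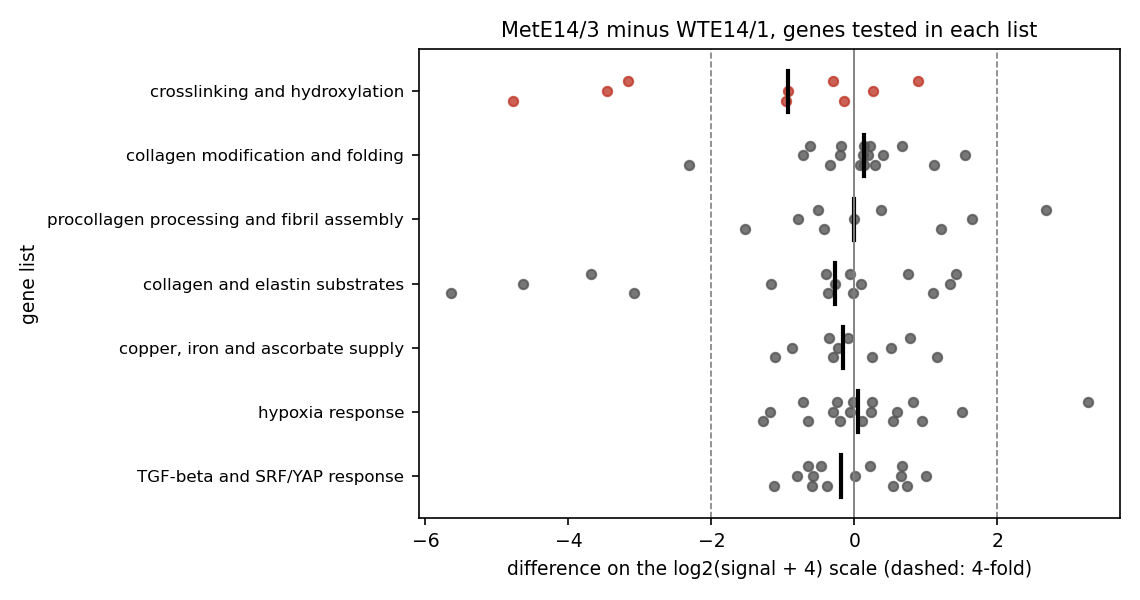
MetE14/3 minus WTE14/1 on the log2(signal + 4) scale for each gene tested in the same 7 lists, 1 array a line, with medians as vertical bars and dashed lines at 4-fold. Points beyond the left dashed line are 3 crosslinking enzymes, 1 folding gene and 4 matrix substrates, and beyond the right one lie Tgm2 and Ndrg1.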

How the data were processed

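The authors deposited linear intensity values, 1 signal per probe set, from 4 arrays, made with GCOS, the Affymetrix software, per the submitters' processing notes; no version or algorithm is named there, and detection calls were not used here. With 2% of probe sets trimmed at either end, each array's mean was 200. Probe set names came from the platform annotation, updated by Entrez identifier against a RefSeq table (GRCm38.p6, names only): 34945 probe sets had 1 symbol, 932 several and 9160 none, besides 64 controls, which were left out. Values entered as log2(signal + 4), since the authors' signals were not on a log2 scale, and were quantile normalized, as array medians differed by 0.614. The filter dropped probe sets whose mean fell under the 40th percentile, and a gene's value came from the brightest of its probe sets by mean. Tests used limma 3.58.1 in R 4.3.3 (eBayes with an intensity trend, two-sided, Benjamini-Hochberg adjustment over all 12598 genes or 27022 probe sets). The fit was also run on simulated arrays with planted differences. Those had equal noise for every gene and no line or batch structure, so they cannot show how errors behave on these arrays. The number of arrays limits the precision. The members, lists and tests were chosen with earlier results of these data known. The naming rule took all members, up to 3 passing genes of each list by size, or the 2 with the highest mean, and the 2 nearest patterns of 2 members. Alternatives covered the pseudocount, normalization, filter, probe set choice, trend, batch and each array left out.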

Additional observations from a re-analysis of the deposited data

Results flagged for a closer look

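Loxl3 differed from the MMH-D3 mean by -0.69 in MetE14/3 and by 2.78 in WTE14/1 on the log2(signal + 4) scale, so the RLSC lines lay on opposite sides of both MMH-D3 arrays. Each line had 1 array, and the difference between them was not tested.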

How the results depend on the processing

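Over the alternatives, 6 of the 9 members, all but Lox, Loxl1 and Plod2, passed in no fit, and the signs of 7 held throughout; Loxl3 (-0.72 within batch A and -0.69 without WTE14/1) and P4ha2 (-0.09 within batch A) turned. The number of members past the threshold, 0, became 1 without quantile normalization, and 0 to 2 when each array was left out (probe sets of members, 0 to 3). Genes past the threshold, 50 higher and 65 lower, were 4 and 5 with no filter, which tests more genes, and 119 lower with arrays centred on their medians; with each array left out they ran from 0 to 51 higher and from 0 to 147 lower (8 without WTE14/1). Genes at least 4-fold apart between the RLSC lines, 646 of 12598, were 400 of 12617 with a pseudocount of 16. They were 386 of 9526 with the 60th percentile filter, which also removes Lox. Lox, Loxl1 and Loxl3 stayed at least 4-fold apart in every setting that kept them. The median of collagen modification genes was 0.32 with arrays centred, and that of TGF-beta response genes 1.43 within batch A and 0.91 to 1.37 with each array left out. The median over all genes, 0.03, was 0.10 without quantile normalization and -0.11 with arrays centred, and under both every member kept its sign. The causes of these changes were not tested. No paired analysis was possible by replicate number because only the MMH-D3 labels carry one; the fit with batch as a block, which pairs MetE14/3 with array 1 and WTE14/1 with array 2, changed no member's call (adjusted p 0.0696 to 0.707). Signals below the filter level of about 11.7 limit the size of the Lox and Loxl1 differences. Both genes passed the filter only through RLSC, so their passes without MetE14/3 are no support for a difference.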
